A study of Mus musculus with 18 samples.

Results

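Serpins are a family of protease inhibitors that trap their target enzyme by offering it a reactive loop as bait. The liver secretes many of them into the blood, where they hold elastase, thrombin, plasmin and the complement proteases in check, while a few members carry hormones or act as signals without inhibiting any protease. Clade a holds the relatives of alpha-1-antitrypsin, clade b the mostly intracellular serpins, and clades c to i antithrombin (c), heparin cofactor II (d), pigment epithelium-derived factor and alpha-2-antiplasmin (f), C1 inhibitor (g) and others. The family was taken as every probe whose gene symbol begins with Serpin, which gave 60 probes for 49 of the 16593 gene symbols on the array. A probe counted as measured when its detection p, which ranks its signal among the array's negative controls, was under 0.05 in at least 2 of 18 libraries, and the brightest probe stood for its gene. By this rule 22 Serpin genes (44.9%) were measured, against 8950 of all gene symbols (53.9%).

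Each library was liver RNA of 1 C57BL/6J mouse on 1 Illumina MouseRef-8 v2 array, which reads a transcript by the fluorescence of the beads it binds. The mice had both germline copies of the deacetylase gene Sirt1 (SIRT1+/+), 1 copy (SIRT1+/-) or none (SIRT1-/-). Food was free (ad libitum, AL) or 40% restricted (CR) from an age of 2 to 5 months, by the labels, until sampling at 13 to 16 months. On AL there were 3 SIRT1+/+, 2 SIRT1+/- and 4 SIRT1-/- mice, and on CR there were 3 of each genotype. Whole liver was used, so fewer cells of a type and less RNA per cell cannot be told apart.

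Some libraries stood apart from their labels or their group. The labels call all mice male, whereas the study's methods list male and female mice for the arrays. Xist, which females transcribe to silence an X chromosome, was found in 7 libraries (signal 416 to 839, against 55.2 to 74.1 in the others), and the Y-linked Eif2s3y only in the other 11. Xist marked 2 of the 4 AL SIRT1-/- livers. On CR it marked 2 SIRT1+/+ livers, 1 SIRT1+/- liver and 2 SIRT1-/- livers. No AL liver of the other genotypes had it, so sex and group were partly mixed. AL SIRT1-/- replicate 4 had the acute-phase transcript Saa1 at a signal of 3134, against 58.5 to 209 in the other 17 libraries. The Sirt1 probe was detected in every library and differed by -0.09 (log2) between AL SIRT1-/- and AL SIRT1+/+ livers, which was not called, and whether it lies in the deleted part is not known here. The hepatocyte markers were measured for 6 of 8 genes, with the albumin probe dim at 62.0 to 128 in all libraries.

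Clade a made up most of what was measured. Of its 16 genes on the array, 14 (87.5%) passed: Serpina10, Serpina11, Serpina12, Serpina1a, Serpina1b, Serpina1c, Serpina1d, Serpina1e, Serpina3b, Serpina3n, Serpina4-ps1, Serpina5, Serpina6 and Serpina7. Clade b has the most genes on the array, 25, of which 3 (12%) passed: Serpinb6a, Serpinb8 and Serpinb12. In clades c to i, 5 of 8 (62.5%) passed, namely Serpinc1, Serpind1, Serpinf1, Serpinf2 and Serping1. The 27 genes that were not measured include Serpina1f, Serpina9, the collagen chaperone Serpinh1, the neural serpin Serpini1, and Serpini2. All 32 probes under the limit had signals between 34.2 and 107, and 27 of them were detected in 0 libraries. Of the 69 Serpin symbols in the GRCm38.p6 gene table the other 20, with most of the Serpina3 group, are not analysed here.

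The 5 alpha-1-antitrypsin genes Serpina1a to Serpina1e lie next to each other on chromosome 12 and are close copies, which matters for reading their probes. Their RefSeq promoters (GRCm38.p6) are shown here over a stretch of 102 bases that aligns without gaps and ends 1 to 63 bases before the annotated start, since this is where the copies can be compared letter by letter. Each is printed 5′ to 3′ on the minus strand, and capitals mark the bases that differ from Serpina1b.
Serpina1a (chr12:103863625-103863726): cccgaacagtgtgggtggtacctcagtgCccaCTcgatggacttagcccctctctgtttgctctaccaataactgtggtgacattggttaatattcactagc
Serpina1b (chr12:103738200-103738301): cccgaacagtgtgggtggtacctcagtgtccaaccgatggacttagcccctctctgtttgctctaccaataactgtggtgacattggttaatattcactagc
Serpina1c (chr12:103904962-103905063): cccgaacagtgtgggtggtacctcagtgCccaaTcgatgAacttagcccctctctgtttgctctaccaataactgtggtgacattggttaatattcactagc
Serpina1d (chr12:103773634-103773735): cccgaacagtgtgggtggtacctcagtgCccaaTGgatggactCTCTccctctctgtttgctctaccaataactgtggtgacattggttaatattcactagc
Serpina1e (chr12:103956960-103957061): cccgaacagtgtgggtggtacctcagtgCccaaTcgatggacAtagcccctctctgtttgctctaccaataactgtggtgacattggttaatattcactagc
The 10 pairs differed at 2 to 7 positions, 92 positions were the same in all 5, and the last 55 bases were identical. That shared run holds GTTAAT, part of the site bound by the hepatocyte factor HNF1. GTTAAT or its reverse complement is in 7.1% of 32851 promoter windows of 300 bases. Counting a gene if any of its windows held it, 7 of the 18 measured Serpin genes with a window had it: the 5 Serpina1 genes, Serpina7 and Serpinb8. The 5 Serpina1 genes share the run as copies and are not separate cases. TTCNNNGAA, the core site of the growth hormone-activated factor STAT5, is in 8.3% of all windows on either strand. By the same count of genes it is in 2 of the 18, Serpina11 and Serpinb6a. Sites outside the windows of 300 bases were not searched, so a gene without it here may have it elsewhere.

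The copies did not read alike on the array. Signals of different probes cannot be ranked as transcript amounts, but Serpina1b ran from 23281 to 29783 and Serpina1d from 20989 to 28793 over the 18 libraries, while Serpina1c ran from 5737 to 17834, Serpina1a from 1702 to 5836 and Serpina1e from 91.3 to 171. The probes of Serpina1b and Serpina1d stood within 1 log2 unit of the brightest probe of the array in all 18 libraries, where the scale can compress a change in transcript. Altogether 8 of the 22 genes (36.4%) came within that distance in at least 1 library, against 2.12% of all genes: beside these 2, Serpinf1 in 16 libraries, Serping1 in 7, Serpinf2 in 6, Serpina3n in 2, and Serpina1c and Serpina10 in 1 each. Probe sequences were not used here, so binding of a Serpina1 or Serpina3 transcript to a relative's probe was not tested.

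**Figure D1:**
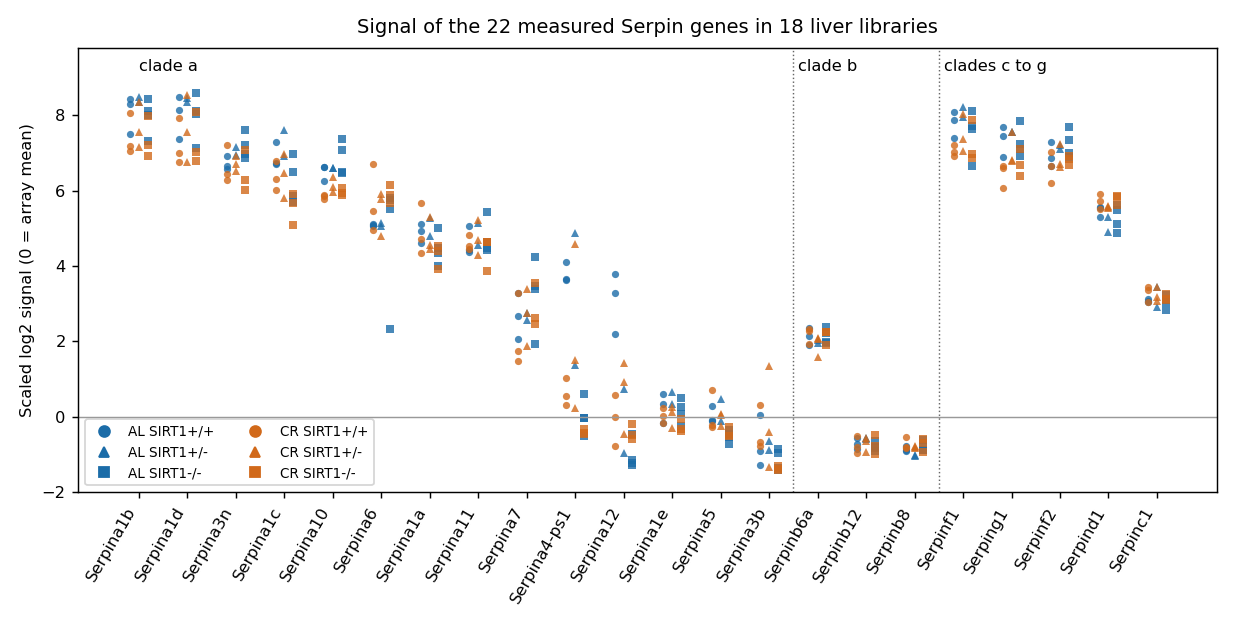
Scaled log2 signal (vertical axis, 0 is the mean probe of the array) of the 22 measured Serpin genes, ordered by clade and by mean, with 1 point per library, colour for diet and shape for genotype. Serpina12 and Serpina4-ps1 spread most between groups, Serpina6 has 1 low library, and the top of the scale is occupied by Serpina1b and Serpina1d.

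Levels are given from here on as scaled log2 signal, the z-score of the log signal within an array stretched to log2 units, so that 0 is the mean probe of that array. Differences come from 1 limma fit of the 6 group means over all 8950 genes, two-sided, with p-values adjusted by the Benjamini-Hochberg method over all of them and called at an adjusted p under 0.05. The replicates are separate mice.

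Serpina12 (vaspin), an inhibitor of kallikrein 7 known as an insulin-sensitizing adipokine, was the one Serpin gene called between genotypes. The signal was 1203, 468 and 1394 in the 3 AL SIRT1+/+ livers and 54.4, 82.8, 47.5 and 56.2 in the 4 AL SIRT1-/- livers, where the probe was detected in 1 of 4. The groups did not overlap, as for 7.41% of all genes. On the scaled axis the means were 3.09 ± 0.822 (SD, n = 3) and -1.02 ± 0.380 (n = 4), a difference of -4.11 (standard error 0.487, limma adjusted p = 0.00065). Since 3 of the 4 AL SIRT1-/- readings were not detected, the size is not exact: with each undetected reading raised to the lowest detected value of its array, an alternative chosen after seeing the data, the difference was -3.66 (adjusted p = 0.0026). Of all genes 0.38% were called in this comparison, 7 higher and 27 lower, and of the 22 Serpin genes only Serpina12 was. In the 2 AL SIRT1-/- livers with Y-linked transcripts, replicates 1 and 4, Serpina12 stood at -1.15 and -1.27, as low as in the 2 with Xist (-0.46 and -1.22). Among the libraries with a Y-linked transcript alone the difference was -4.30 (adjusted p = 0.0238).

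The same gene was the one Serpin called for the diet within a genotype. In CR SIRT1+/+ livers its signal was 72.3, 147 and 236, below all 3 AL SIRT1+/+ livers, with a mean of -0.07 ± 0.669 (n = 3). In SIRT1+/+ the libraries of the diets did not overlap for 5 of the 22 Serpin genes (22.7%), beside 20.4% of all genes. The Serpina12 probe was detected in 2 of the 3 CR SIRT1+/+ livers. The difference was -3.15 (standard error 0.521, adjusted p = 0.0117; -3.13 with the undetected reading raised), in a comparison that called 0.659% of all genes. The call was lost without AL SIRT1+/+ replicate 1 (adjusted p = 0.0820), without CR SIRT1+/+ replicate 1 (0.0632), and among libraries with a Y-linked transcript, where CR SIRT1+/+ keeps 1 library (-3.10, adjusted p = 0.137). The CR SIRT1+/+ library with a Y-linked transcript, replicate 2, stood at -0.01, between those with Xist at -0.76 and 0.57.

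In SIRT1-/- livers Serpina12 was at -0.58, -0.20 and -0.49 on CR, against -1.27 to -0.46 on AL, a difference of 0.60 (standard error 0.487, adjusted p = 0.584) that rests on the 3 undetected AL readings and was 0.15 with these raised to the lowest detected value (adjusted p = 0.922). On CR the genotypes stood at -0.36 of each other (SIRT1-/- minus SIRT1+/+, standard error 0.521, adjusted p = 0.999). The CR effect in SIRT1+/+ minus that in SIRT1-/- livers was -3.76 (standard error 0.713), which missed the limit over all genes (adjusted p = 0.105, unadjusted p = 8.7e-05), and passed it in the fit of the 4 groups alone (adjusted p = 0.0156). It too uses the undetected readings, and with these raised it was -3.28 (adjusted p = 0.189). A count of 2 genes in all (0.0223%) was called in this comparison. The 2 AL SIRT1+/- livers read 180 and 54.3 and the 3 CR SIRT1+/- livers 362, 105 and 186, so that single mice of this genotype lay on either side of each other. The difference there was 0.75 (adjusted p = 0.765) and was -0.11 without AL SIRT1+/- replicate 2.

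A second, dimmer probe of Serpina12, detected in 6 libraries, read 111, 174 and 301 in AL SIRT1+/+ livers, 56.7 to 62.3 in AL SIRT1-/- and 63.6, 69.6 and 99.9 in CR SIRT1+/+ livers. It was lower by the same contrasts, at -1.69 (standard error 0.278) for the genotype on AL and -1.50 (standard error 0.297) for the diet in SIRT1+/+. In a limma fit of single probes it was also called lower for the diet averaged over genotypes (-0.83, adjusted p = 0.010). The brighter probe, which stands for the gene in the counts, was not (-0.60, adjusted p = 0.214). For the diet in SIRT1+/- livers the dimmer probe was at -0.885 and the brighter at 0.75. In SIRT1-/- livers they were at -0.10 and 0.60, with no call for either probe in these genotypes. In the AL SIRT1+/- livers the dimmer probe read 110 and 128, where the brighter probe read 180 and 54.3, so the probes did not order these 2 mice the same way.

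Serpina4-ps1, a transcribed pseudogene of the kallistatin group, is the next gene to Serpina12 on chromosome 12. Its signal was 1093, 1212 and 2547 in AL SIRT1+/+ livers, 180, 80.0, 102 and 138 in AL SIRT1-/- livers, and 245, 222 and 193 in CR SIRT1+/+ livers. Both of the latter groups lay wholly below the first. Of all genes, 7.41% did not overlap in the first of these comparisons and 20.4% in the second. The difference was -3.79 for the genotype on AL (standard error 0.809, adjusted p = 0.0647) and -3.17 for the diet in SIRT1+/+ (standard error 0.865, adjusted p = 0.101), neither of them called. The SIRT1+/- livers spread widely, at 270 and 2360 on AL and at 3288, 440 and 118 on CR, and the spread within that genotype enters the error of every comparison. In fits of the compared groups alone both differences were called (adjusted p = 0.00137 and 0.00224). The CR SIRT1-/- livers were at 85.4, 112 and 113. Averaged over genotypes the diet difference of Serpina4-ps1 was -1.53 (standard error 0.51, adjusted p = 0.0686), the largest in size of the 22 genes and not called, with -0.95 to -2.11 in fits without 1 library.

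Serpina5, the protein C inhibitor, follows Serpina4-ps1 on the chromosome. At 96.1, 101 and 165 in AL SIRT1+/+ and 87.7, 69.9, 73.7 and 109 in AL SIRT1-/- livers it was dim, though detected in 17 of 18 libraries, and only on the scaled axis did the groups not overlap (-0.12 to 0.30 against -0.71 to -0.35). The difference was -0.54 (standard error 0.213, adjusted p = 0.596). These 3 neighbours were the 3 Serpin genes with the smallest p for the genotype on AL and the 3 whose AL SIRT1+/+ and AL SIRT1-/- libraries did not overlap, beside 7.41% of all genes. The other measured genes of the cluster on chromosome 12 ran from -0.67 (Serpina1c) to 0.45 (Serpina3n) for that contrast. On CR the 3 Serpin genes without overlap between these genotypes were Serpina1c, Serpina3b and Serpina4-ps1 (13.6%, beside 7.49% of all genes), so not the same neighbours.

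**Figure D2:**
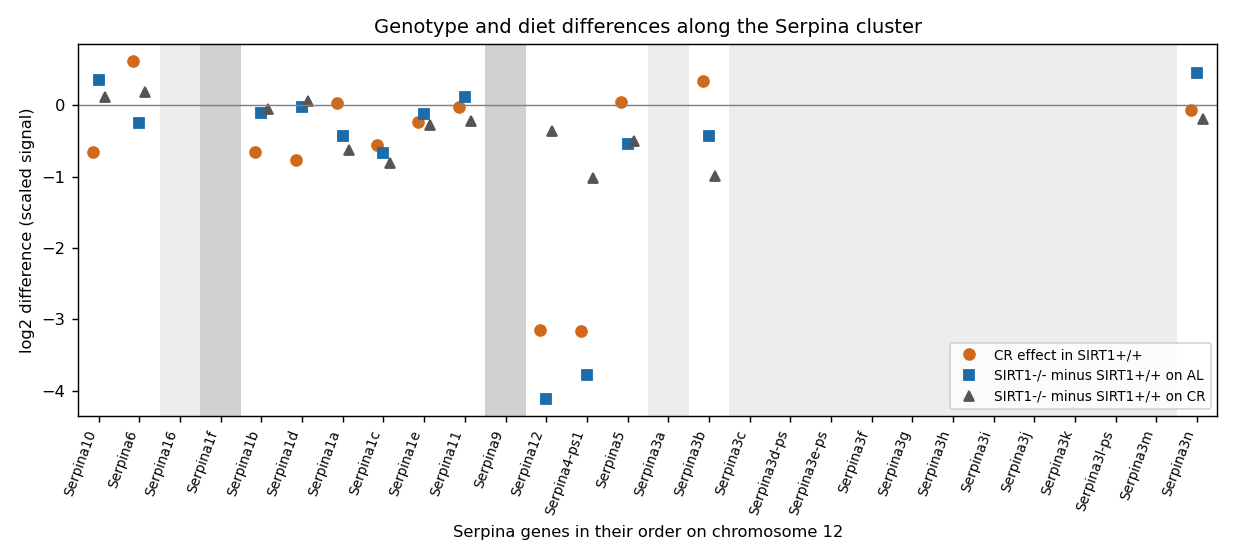
Log2 difference of scaled signal (vertical axis) for the diet in SIRT1+/+ livers and for the genotype on each diet, for the 28 Serpina genes in their order on chromosome 12. Light bands are genes not on the array by symbol, dark bands genes under the detection limit; Serpina12 and Serpina4-ps1 stand between -3.15 and -4.11 for the diet and the AL genotype contrast, below all other genes.

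**Figure D3:**
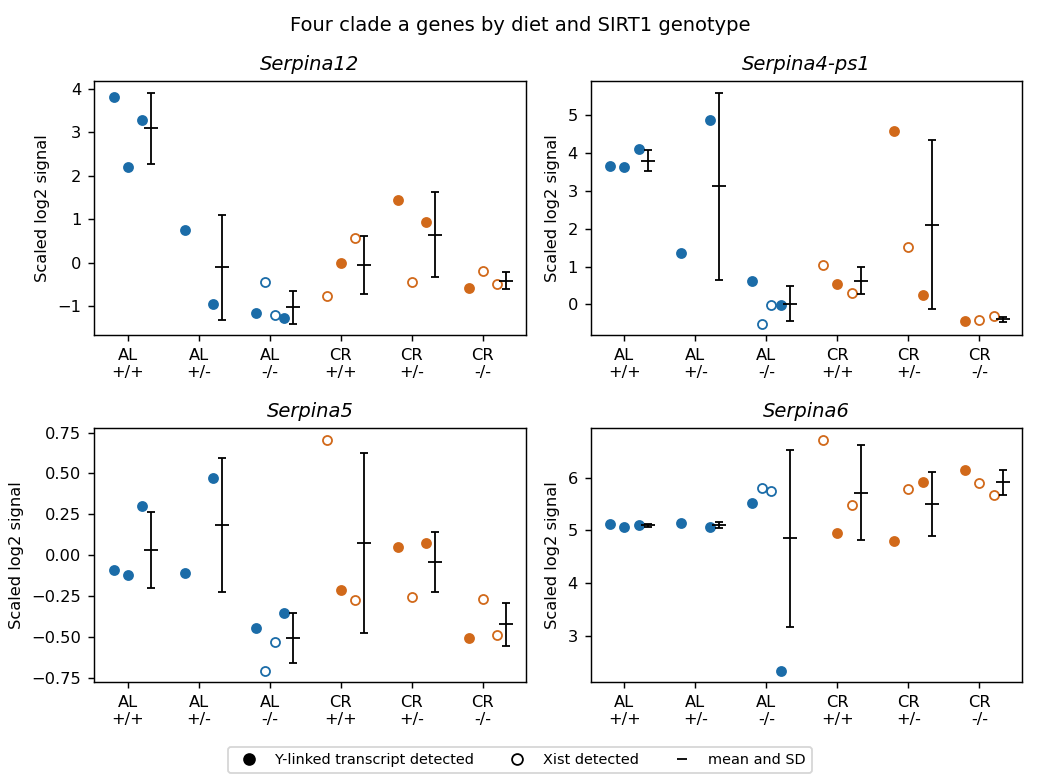
Scaled log2 signal (vertical axis) of Serpina12, Serpina4-ps1, Serpina5 and Serpina6 by diet and SIRT1 genotype, 1 point per mouse, filled where a Y-linked transcript and open where Xist was detected, with mean and SD. AL SIRT1+/+ libraries are above all AL SIRT1-/- libraries for the first 3 genes, and Serpina6 has AL SIRT1-/- replicate 4 at 2.34.

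Genes of the liver that are higher in males under pulsed growth hormone moved in the same comparisons, and their part in the Serpina12 result was not tested. Of 18 measured genes of that list, 8 were called lower in AL SIRT1-/- than in AL SIRT1+/+ livers, beside 0.302% of all genes. On CR in SIRT1+/+ 9 were called lower, beside 0.391% of all genes, and none was called higher in either comparison. The medians were -2.36 and -2.71, against 0.02 and 0.03 over all genes. The summed level of the list ran from 81.5 to 90.2 in AL SIRT1+/+ and from 29 to 46.2 in AL SIRT1-/- livers. In AL SIRT1+/- livers it ran from 83.8 to 91.2. The brighter Serpina12 probe read 180 and 54.3 in those livers, below the 468 to 1394 of AL SIRT1+/+ livers. The dimmer probe read 110 and 128 there, against 111 to 301 in AL SIRT1+/+ livers. Cyp4a12a, a fatty acid hydroxylase of that list, read 8968 to 19156 in AL SIRT1+/+ and 46.7 to 68.6 in all 4 AL SIRT1-/- livers, including both with Y-linked transcripts.

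The diet averaged over genotypes gave 4 called Serpin genes of 22 (18.2%), 3 lower and 1 higher, where 10% of all genes were called (3.63% lower and 6.41% higher). The count was 8 without AL SIRT1-/- replicate 4, 2 without AL SIRT1+/+ or CR SIRT1-/- replicate 2, and 1 without replicate 2 of either SIRT1+/- group. Serpina10, the protein Z-dependent inhibitor of coagulation factor Xa, had nearly separate diets on the scaled axis only. Its unscaled signal overlapped, at 7197 to 29044 on AL and 6263 to 13599 on CR. It stood at 6.63, 6.64 and 6.25 in AL SIRT1+/+, 6.60 in both AL SIRT1+/-, and 6.46, 6.49, 7.09 and 7.38 in AL SIRT1-/- livers. The 3 CR SIRT1+/+ livers read 5.79, 5.90 and 5.85, those of CR SIRT1+/- mice 5.96, 6.09 and 6.38, and those of CR SIRT1-/- mice 6.07, 5.94 and 5.88. On that axis a single AL library, SIRT1+/+ replicate 3, was below a single CR library, SIRT1+/- replicate 3, and all others separated. The difference was -0.67 (standard error 0.121, adjusted p = 0.0046), and within the genotypes it was -0.66 with both copies, -0.46 with 1 and -0.90 with none, not called in any (adjusted p = 0.154, 0.614 and 0.0672).

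Serping1, the C1 inhibitor that stops the first complement proteases and kallikrein, was lower (-0.66, standard error 0.165, adjusted p = 0.0222). It stood at 7.44, 7.70 and 6.90 in AL SIRT1+/+, 7.57 and 7.56 in AL SIRT1+/- and 6.93 to 7.86 in AL SIRT1-/- livers. On CR it stood at 6.08, 6.65 and 6.59, then 6.80, 6.78 and 7.56, then 7.11, 6.40 and 6.70 in the 3 genotypes. The SIRT1+/+ groups did not overlap between the diets, as for 20.4% of all genes. CR SIRT1+/- replicate 3 came level with its AL group, and the SIRT1-/- groups overlapped. The call was kept in 13 of 18 fits without 1 library and missed without AL SIRT1+/+ replicate 2, either AL SIRT1+/- library, CR SIRT1+/- replicate 2 or CR SIRT1-/- replicate 2 (adjusted p up to 0.069). On CR the 5 livers with Xist stood at 6.08 to 6.78 and the 4 with a Y-linked transcript at 6.65 to 7.56, and the part of sex in the difference was not tested. Among libraries with a Y-linked transcript the difference was -0.33 (adjusted p = 0.434).

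Serpina1c was lower at -0.70 (standard error 0.213, adjusted p = 0.0488), at the edge of the limit, and kept the call in 5 of 18 fits without 1 library. Its lowest library was CR SIRT1-/- replicate 3 at 5.08 and its highest AL SIRT1+/- replicate 2 at 7.62, and the diets overlapped in every genotype. Serpina1b (-0.66, adjusted p = 0.0711), Serpina1d (-0.74, adjusted p = 0.101) and Serpina1e (-0.36, adjusted p = 0.0861) had values of the same sign without a call, and Serpina1a was at -0.14 (adjusted p = 0.677). Serpina1b and Serpina1d were near the array top in all 18 libraries. Unscaled, Serpina1b ran from 23281 to 28697 on AL and from 25592 to 29783 on CR. Serpina1d ran from 23776 to 28478 and from 20989 to 28793, and Serpina1c from 6029 to 16705 and from 5737 to 17834.

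Serpind1, heparin cofactor II, which inhibits thrombin, was the one Serpin gene called higher on CR. It stood at 5.31, 5.54 and 5.56 in AL SIRT1+/+, 5.30 and 4.91 in AL SIRT1+/- and 5.11, 5.63, 5.49 and 4.88 in AL SIRT1-/- livers, and between 5.51 and 5.91 in all 9 CR livers. The difference was 0.40 (standard error 0.105, adjusted p = 0.0265), with 0.25, 0.47 and 0.49 at 2, 1 and 0 copies of Sirt1. It was called in 15 of 18 fits without 1 library, and lost the call with Y-linked transcripts as a covariate (0.32, adjusted p = 0.0790).

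**Figure D4:**
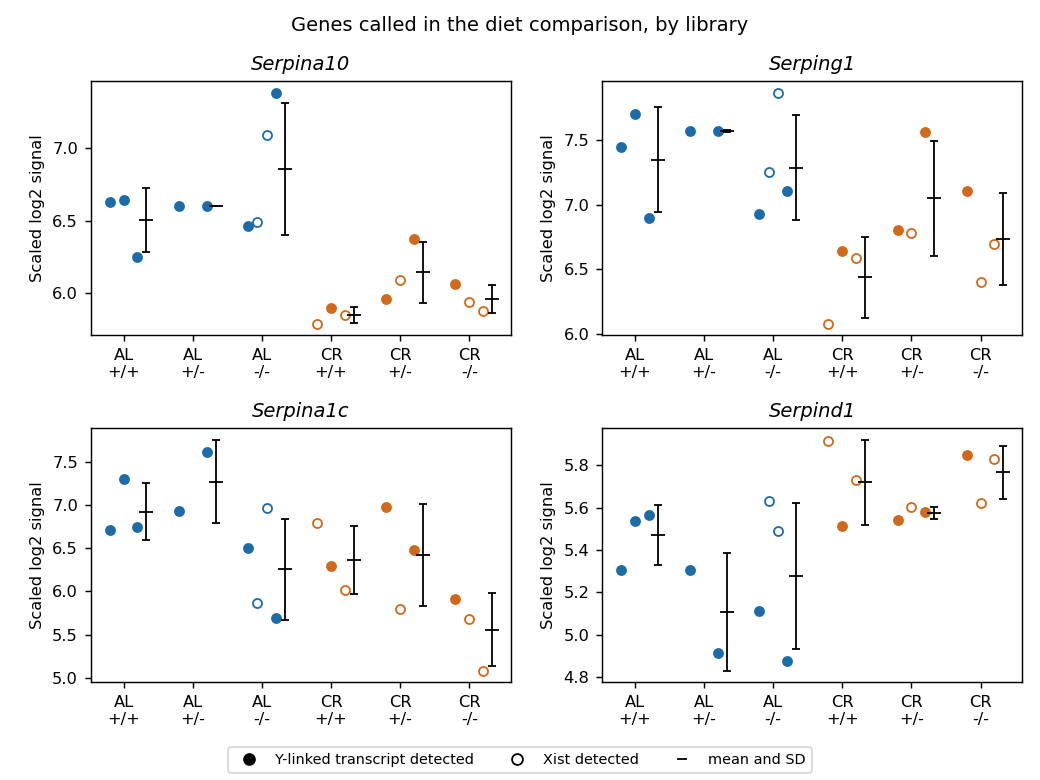
Scaled log2 signal (vertical axis) of the 4 Serpin genes called for the diet averaged over genotypes, by diet and genotype, 1 point per mouse, filled where a Y-linked transcript and open where Xist was detected, with mean and SD. The 9 CR libraries are between 5.51 and 5.91 for Serpind1, and at or below 6.38 for Serpina10.

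The 3 lower values depended on how arrays are put on 1 scale. The median signal of an array was 59.3 to 78.8 on AL and 57.4 to 86.6 on CR. Under z-scores the 84 genes with a mean level of 7 or more had a median difference of -0.42, with 98.8% below 0, the 160 genes between 6 and 7 had -0.19, and the median over all genes was 0.025. Under quantile normalization those medians were 0.01, 0.04 and 0, and Serpina10 (-0.48, adjusted p = 0.0695), Serping1 (-0.34, adjusted p = 0.0947) and Serpina1c (-0.46, adjusted p = 0.0999) missed the limit. Serpina1b (-0.08) and Serpinf1 (-0.05) were then near 0. Hepatocyte markers had values of the same sign: Ahsg (-0.62), Apoa1 (-0.59), Apoc3 (-0.83), Hpx (-0.73) and Ttr (-0.69) stood there under z-scores, none of them called, and Alb at 0.09, and their part in the Serpin values was not tested. The summed level of these 6 ran from 35.8 to 42.5 on AL and from 33.6 to 42.5 on CR. The median of the 6 measured markers was -0.66 under z-scores and -0.12 under quantile normalization. Serpind1 was at 0.52 and kept its call (adjusted p = 0.0088). Serpina12 is dim and was at -4.13 for the genotype on AL (adjusted p = 0.00061). Of the 22 genes, 17 were below 0 under each scaling, but their median went from -0.31 to -0.09, beside 45.5% of all genes below 0 under the first. Of all genes called, 574 were higher and 325 lower on CR under z-scores, and 510 and 467 under quantile normalization.

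**Figure D5:**
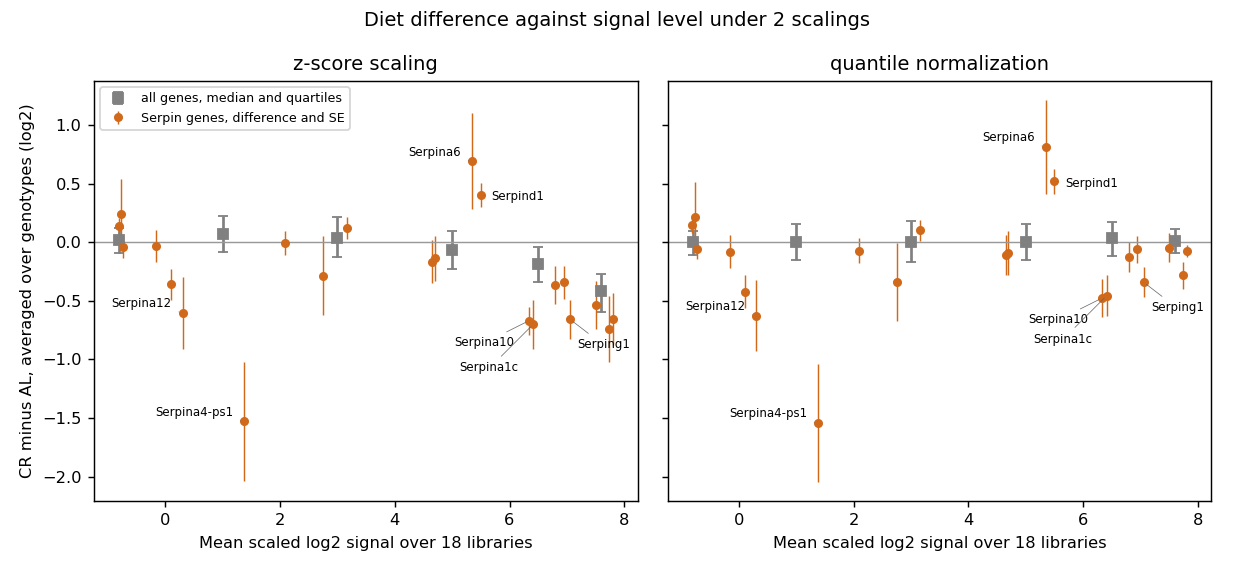
CR minus AL averaged over genotypes (log2, vertical axis) against mean scaled log2 signal (horizontal axis) under z-score scaling (left) and quantile normalization (right), with Serpin genes as points with standard errors and all genes as medians and quartiles in 6 level bands. The grey medians fall to -0.42 at the bright end on the left and stay within 0.04 of 0 on the right.

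By clade, the median diet difference averaged over genotypes was -0.36 over 14 clade a genes (2 called lower), -0.01 over 3 clade b genes (none called) and -0.34 over 5 genes of clades c to g (1 called in each direction), against 0.025 over all genes. Under quantile normalization the medians were -0.21, -0.06 and -0.05 in that order, against 0 over all genes, so the value of clades c to g rested on the scaling. Of the 8 genes with a mean level of 6 or more, 5 are of clade a and 3 of clades f and g, and the difference between clades was not tested. In clade b, Serpinb6a, whose human counterpart inhibits cathepsin G, ran from 1.58 to 2.38 over all libraries, and Serpinb8 and Serpinb12 were at the detection limit, in 2 and 6 libraries. Over the 6 groups the median clade a level ran from 4.33 in CR SIRT1-/- to 4.94 in AL SIRT1+/- livers, and that of clades c to g from 6.44 in CR SIRT1+/+ to 7.24 in AL SIRT1-/- livers.

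Several well-known members were not called in any comparison. Serpinc1, antithrombin, stayed in a narrow range on its brighter probe, between 2.84 and 3.45 in all libraries (0.12 for the averaged diet, adjusted p = 0.406). Its dimmer probe, detected in all 18 libraries, spread more widely, with signals of 83.7 to 490. In the limma fit of single probes it was at 0.44 for the averaged diet (standard error 0.245, adjusted p = 0.256). Serpinf2, alpha-2-antiplasmin, was at -0.34 (adjusted p = 0.130), with its other probes at -0.25 and -0.33. Serpinf1, pigment epithelium-derived factor, was at -0.54 (adjusted p = 0.10) with signals of 13603 to 30619. Serpina3n, an acute-phase inhibitor of granzyme B and cathepsin G, was at -0.37 (adjusted p = 0.153), and Serpina11, whose target is not known, at -0.17 (adjusted p = 0.583). Serpina3b was detected in 4 libraries, 1 AL SIRT1+/+, 1 CR SIRT1+/+ and 2 CR SIRT1+/-, and ran from 41.1 to 342. It read 342, 107 and 41.1 in CR SIRT1+/- livers, 2 of 3 detected, and 61.7 and 67.1 in AL SIRT1+/- livers, where it was not detected. The third CR liver was thus below both AL livers. With the AL readings raised to the lowest signal called detected on their array, the CR mean was 1.38-fold the AL mean. The undetected CR reading was left as read, so this is not a bound on the difference between mice. The fit gave 0.62 (standard error 0.563, limma adjusted p = 0.801), so no difference was established.

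Single libraries stood apart for the hormone carriers. Serpina6, the corticosteroid-binding globulin, stood at 2.34 in AL SIRT1-/- replicate 4 (signal 760) and between 4.79 and 6.72 in the other 17 libraries (2654 to 13193). Serpina7, the thyroxine-binding globulin, was highest in that same library, at 2994 against 335 to 1898 elsewhere. The protease inhibitors Serpina10 (29044 against 6263 to 13599) and Serpina3n (25722 against 7319 to 17676) had their highest signal there too, as did Serping1 (23759 against 7639 to 21290), although on the scaled axis 2 libraries were above it for Serpina3n and 8 for Serping1. In that library Lcn2 and Orm2, transcripts of the acute-phase response, read 24714 and 24237, against at most 3627 and 4537 elsewhere. The averaged diet difference of Serpina6 was 0.69 (standard error 0.409, adjusted p = 0.286), and between 0.41 and 0.82 in fits without 1 library each.

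The enzymes that serpins restrain, and inhibitors of other families, gave calls in this diet comparison as well, where 10% of all genes were called. Of 19 measured target proteases, coagulation factor F11 was lower on CR averaged over genotypes (-0.49, standard error 0.132, adjusted p = 0.029) and the lectin pathway protease Masp1, a target of C1 inhibitor, was higher (0.33, standard error 0.097, adjusted p = 0.0447). Thrombin (F2) was at -0.21 (adjusted p = 0.30). Of 19 measured inhibitors outside the family, Itih1, a hyaluronan-binding plasma protein, was lower (-0.45, adjusted p = 0.0317) and the metalloprotease inhibitor Timp3 was higher (0.82, adjusted p = 0.00233). Of 6 cofactors, receptors and relatives, the serpin under another symbol, Agt (angiotensinogen, which inhibits no protease), was higher at 0.47 (adjusted p = 0.036) and so was the receptor Vldlr, at 1.21 (adjusted p = 0.0221). None of these genes was called between genotypes on AL or for the diet in SIRT1+/+ livers.

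No Serpin gene was called for the diet in SIRT1+/- livers (0.0223% of all genes) or SIRT1-/- livers (0.145%), or between SIRT1-/- and SIRT1+/+ livers on CR (0.0%), by limma's adjusted p. At an unadjusted p under 0.05 the counts were 1 (Serpind1), 3 (Serpina10, Serpina3n and Serpind1) and 2 (Serpina1c and Serpina5), where 8.34%, 15% and 3.92% of all genes passed. Serpina1c was at -0.81 between the genotypes on CR (standard error 0.362, adjusted p = 0.999).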

How the data were processed

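Liver RNA of 18 mice was hybridised, 1 array each. Per the submitters' processing notes the scans were read with BeadStudio 3.4.0. The authors deposited the signal intensity of 25697 probes, not background-subtracted. Beside it they deposited each probe's detection p-value. They also deposited a score, the z-transformed log intensity of each array, which z-scores computed here match within 5e-10. By the platform annotation 23978 probes have 1 gene symbol, and 1719 are not named here and were left out. 1 row without a probe name was dropped.

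Z-scores were multiplied by the mean array SD of log2 signal (1.84). Of probes detected (p under 0.05) in 2 or more libraries the brightest stood for its gene, which left 8950 genes. Group means were fitted with limma 3.58.1 (R 4.3.3), and in each of 7 comparisons p-values were adjusted by the Benjamini-Hochberg method over all genes. The script was tested on simulated data. A fold against an undetected group used the lowest detected value of each array. The number of arrays limits precision. Tables and plots were made with Python 3.11.15 and matplotlib 3.10.9.

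Every measured Serpin gene was named, with library values for those called, the 5 with the smallest p for the averaged diet and for the genotype on AL, the 3 brightest, and those with an outlying library. Members and gene lists were chosen with earlier results of these data known. As alternatives, arrays were normalized by neqc (offset 16), by quantiles or taken as deposited z-scores. The detection filter was dropped or set to 0.01, and the probes of a gene were averaged. Fits used only the groups compared, array quality weights, a replicate block, Y-linked transcripts as a covariate or to select libraries, or left out each library. A pair of alternatives was added after seeing the data. Marker lists of Kupffer cells, neutrophils, stellate cells, endothelium, cholangiocytes, lymphocytes, adipocytes and pancreas were counted as well.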

Additional observations from a re-analysis of the deposited data

Results flagged for a closer look

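In the 4 AL SIRT1-/- livers, 2 of the 22 Serpin genes had a library that lay past Dixon's critical value from the other 3, measured by its gap to the nearest one over the whole range. Chance marks about 1 in 20 groups. Serpina6, the corticosteroid-binding globulin, was at 2.34 in replicate 4 against 5.52 to 5.80 in the others, a ratio of 0.920. Serpina12 was at -0.46 in replicate 2 against -1.27 to -1.15, a ratio of 0.851, and was detected in replicate 2 alone of the 4.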

How the results depend on the processing

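Serpina12 kept its call between the genotypes on AL in 10 other settings (-5.11 to -2.90) and all 18 fits without 1 library (-4.56 to -3.76). For the averaged diet the count of called Serpin genes, 4, became 2 under neqc (Serpind1 and Serpina4-ps1, the latter at -1.77, adjusted p = 0.0497, and not among the 4), 1 under quantile normalization, 10 with array quality weights, 7 with a replicate block, 1 with the Y-linked covariate and 0 among libraries with a Y-linked transcript. Chosen after seeing the data, leaving out AL SIRT1-/- replicate 4 with that covariate gave 2, and raising undetected readings to the lowest detected value gave 3, without Serpina1c (adjusted p = 0.0601). Without 1 library it ran from 1 to 8. For the diet in SIRT1+/+ the count of 1 became 2 with only the groups compared and with weights, 0 among libraries with a Y-linked transcript, 0 without replicate 1 of either SIRT1+/+ group, and 2 without CR SIRT1+/- replicate 1 (0 to 2). For the diet in SIRT1-/- the count of 0 became 1 with weights and without AL SIRT1-/- replicate 1 (0 to 1). For the genotype on AL the count of 1 became 2 under neqc, with only the groups compared, with weights, and without either AL SIRT1+/- library or CR SIRT1+/- replicate 1 or 3 (1 to 2). For the difference of the CR effects it became 2 with only the groups compared and 1 without CR SIRT1+/- replicate 2 (0 to 1). The Serpina12 difference in SIRT1+/-, 0.75 and not called, was -0.068 over the mean of its probes and ran from -0.11 to 1.60 without 1 library. Over all genes, the 899 called for the averaged diet became 2136 with weights, 491 with the covariate and 67 among libraries with a Y-linked transcript (339 to 1319 without 1 library), the 59 for the diet in SIRT1+/+ became 228, 24 and 31, with 114 under the block (10 to 108), and the 34 for the genotype on AL became 95 with weights and 20 with only the groups compared (15 to 46). The deposited z-scores are the scaling used here and could change nothing. The causes were not tested. Equal replicate numbers did not pair the mice: 10 of 40 same-numbered pairs had a correlation of deviations over 0.1 (-0.18 to 0.29), and 8 of 18 libraries matched their own number best.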

Other observations

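For the diet averaged over genotypes, 6.41% of all genes were called higher and 3.63% lower. Of 8 measured Kupffer cell and macrophage markers, the complement gene C1qb was called lower on CR averaged over genotypes (list median -0.37, with Marco above 0 at 0.15). Of 6 sinusoidal endothelial markers the hyaluronan receptor Lyve1 was called higher (0.58). Kdr (-0.23) and Clec4g (-0.20) were below 0, and Pecam1 (0.23), Stab1 (0.01) and Stab2 (0.14) above it, none of them called. None of the 3 neutrophil, 5 stellate cell, 2 cholangiocyte, 3 lymphocyte markers and the 1 adipocyte marker measured was called in that comparison. Of 3 measured acinar pancreas markers, the elastase Cela1 was called lower, at -1.29 (standard error 0.183, limma adjusted p = 0.00168), and at -1.74 between AL SIRT1-/- and AL SIRT1+/+ livers (adjusted p = 0.0115). The others did not follow it: Cela2a was at 0.43 and 0.49 and Ctrb1 at -0.08 and -0.01 in these comparisons, none of them called. Of 18 measured acute-phase genes, the fibrinogen chain Fgg was called lower on CR, at -0.51 (adjusted p = 0.0274). Of 11 measured genes that are higher in female liver, 5 were called higher on CR averaged over genotypes and none lower. Xist marked 5 livers on CR and 2 on AL, so sex and diet were partly mixed, and the part of sex was not tested.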
